A study of Mus musculus with 2 samples.

Results

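The transcripts described here come from 32 genes that carry glucose from the cell surface to lactate or to the mitochondrial gate for pyruvate: 3 glucose transporters, 21 genes for the enzymes of glycolysis and for their regulators of the PFKFB family, the lactate dehydrogenases Ldha and Ldhb, and the regulators and alpha subunit of pyruvate dehydrogenase. They were taken by symbol from 31053 measured features, and all 32 were found. Aldoa stood on 2 feature rows, and its second row (ENSMUSG00000114515) held 15 and 16 UMIs and was not used. A UMI (unique molecular identifier) counts 1 captured transcript, and levels are given as CPM, the UMIs of a gene per 1000000 UMIs of all genes in the same cells.

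The cells were sorted as alive and CD45-positive from dissociated tumours of mice bearing AB1-HA, a mouse mesothelioma line. CD45 is the surface phosphatase of leukocytes. The mice had received a control antibody or an antibody to VEGF, the vascular growth factor, and each treatment was represented by 1 library (10x Genomics 3-prime chemistry). The strain, age, dose, timing and number of mice behind each library are not given in the sources used here. With 1 library per group there is no replicate and no test, so every difference describes these 2 libraries, and all intervals are exact 95% intervals that cover counting error only.

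Glycolysis splits glucose into pyruvate in the cytosol and yields ATP without oxygen. Most steps are served by several isoforms, which differ in regulation and in the tissues that use them, and pyruvate is then either reduced to lactate or passed to pyruvate dehydrogenase, which the PDK kinases switch off and the PDP phosphatases switch on. Low oxygen stabilises the factor HIF-1, which binds a short DNA element near many of these genes, and tumour macrophages and neutrophils are known for strong use of the pathway.

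That element has the core ACGTG or GCGTG, and the RefSeq promoter table (build GRCm38.p6) was searched for both on either strand. Of the 32 genes, 30 had an entry, all but Slc2a3 and Pdp1, and 27 of the 30 (90.0%) held at least 1 match in a window of 300 bases around a start site, against 46.7% of all 27025 genes in the table. Counted by start site, 37 of 49 (75.5%) held a match, against 43.8% of 32851 starts. Both cores contain CG, and the shares were not adjusted for base composition or for the number of start sites listed per gene. The reason for the difference in shares was not tested. A match is a run of letters and not evidence of binding. The 250 bases upstream of the start are shown for 3 genes that were among those with more transcript in the anti-VEGF library, Slc2a1 (chr4:119108495-119108744, plus strand), Pgk1 (chrX:106186850-106187099, plus strand) and Ldha (chr7:46845554-46845803, plus strand, the more upstream of 2 listed starts), and for Ldhb (chr6:142507958-142508207, minus strand), which had less. Capitals mark the matches, which read CACGT or CACGC where the core lies on the other strand, and a CACGTG, in which both strands match, counts once. Slc2a1 held 2 matches, Pgk1 2, Ldha 3 and Ldhb 1. No relation between the number of matches and the transcript levels was tested.
Slc2a1: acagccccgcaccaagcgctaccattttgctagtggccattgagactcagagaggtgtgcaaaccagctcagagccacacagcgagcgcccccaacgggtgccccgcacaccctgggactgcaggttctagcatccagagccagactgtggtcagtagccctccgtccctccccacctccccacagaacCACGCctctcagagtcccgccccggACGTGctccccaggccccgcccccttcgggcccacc
Pgk1: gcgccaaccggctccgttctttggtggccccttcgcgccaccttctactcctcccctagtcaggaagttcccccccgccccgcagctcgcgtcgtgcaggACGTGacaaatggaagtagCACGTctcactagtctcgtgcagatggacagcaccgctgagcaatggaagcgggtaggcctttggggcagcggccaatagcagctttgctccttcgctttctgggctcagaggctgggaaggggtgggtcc
Ldha: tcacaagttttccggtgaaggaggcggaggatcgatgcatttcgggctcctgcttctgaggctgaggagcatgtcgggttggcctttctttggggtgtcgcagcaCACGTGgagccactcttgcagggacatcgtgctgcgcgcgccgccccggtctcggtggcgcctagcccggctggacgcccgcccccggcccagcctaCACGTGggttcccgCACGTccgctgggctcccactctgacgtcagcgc
Ldhb: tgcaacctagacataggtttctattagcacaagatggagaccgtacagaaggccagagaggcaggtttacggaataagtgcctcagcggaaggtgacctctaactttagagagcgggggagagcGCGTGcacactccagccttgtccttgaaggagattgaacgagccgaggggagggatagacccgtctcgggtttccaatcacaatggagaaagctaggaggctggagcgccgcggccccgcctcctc

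Cells were assigned to classes by marker genes counted in each cell. In each library 92.5% of barcodes passed the cell filter, which left 10805 cells of the control and 8159 of the anti-VEGF library, with medians before filtering of 17293 and 21781 UMIs per barcode, and 35 barcode sequences occurred in both libraries. Macrophage-gated cells, chosen by C1q, Csf1r, Apoe and Cd68, numbered 5166 and 3753. Cells with high Acp5 and Ctsk, the osteoclast-associated genes, numbered 2667 and 1195 and are called osteoclast-like. There were 128 and 199 monocyte-gated cells (Ly6c2 and Ccr2), 62 and 50 T-gated cells (T-cell receptor complex genes) and 151 and 133 collagen-expressing cells without Ptprc, the CD45 gene, and without Car9, a gene induced by hypoxia. A further 2113 and 2159 cells met no gate. In each of the 8 classes of leukocytes, all 4 markers kept out of the gate for checking were detected in both libraries, though markers of other classes were present too, as given below for each class compared. Ratios between libraries were taken in these 6 classes, which had at least 50 cells in each library, and the others are described by their levels.

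The 32 genes together took a larger share of all UMIs in the anti-VEGF library in 11 of 12 classes. Over all kept cells they gave 2213856 UMIs, 0.988% of the total, in the control library and 3365198 UMIs, 1.63%, in the anti-VEGF library. In macrophage-gated cells the share was 0.945% and 1.55%, and in monocyte-gated cells 0.919% and 1.47%. Osteoclast-like cells were at 0.932% and 1.29%, T-gated cells at 0.740% and 1.32%, and ungated cells at 1.17% and 2.0%. The highest shares were in collagen-expressing cells with Car9, at 1.79% of UMIs in 47 control cells and 2.48% in 134 anti-VEGF cells, and the lowest were in dendritic cells with Ccr7, at 0.468% and 0.578%. NK-gated cells, 27 and 9 in number, were the exception, with 0.753% (interval 0.725 to 0.782) and 0.704% (0.646 to 0.766), which overlap.

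**Figure D1:**
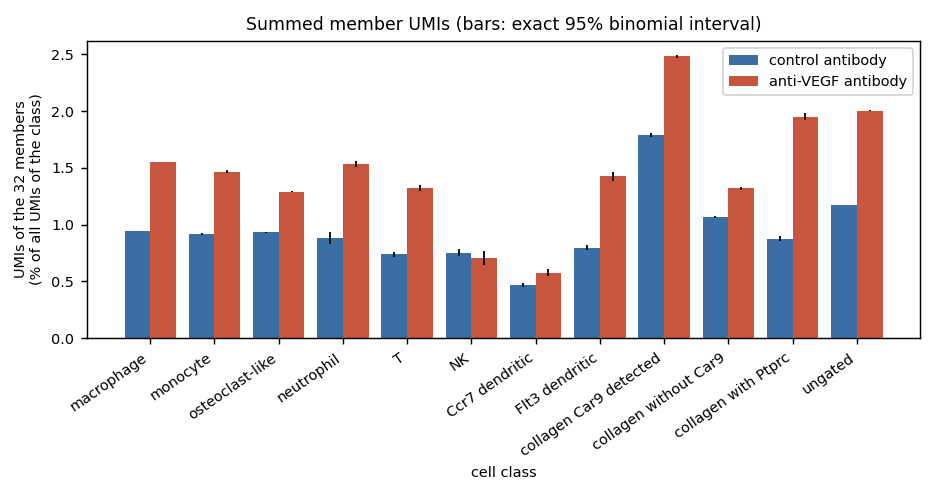
UMIs of the 32 genes as a percentage of all UMIs in each cell class (vertical axis), for the control antibody library (blue) and the anti-VEGF library (red); thin bars are exact 95% binomial intervals. The anti-VEGF bar is the taller one in every class but NK, and collagen-expressing cells with Car9 reach 1.79% and 2.48%.

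A gene was counted as higher or lower when its CPM differed by at least 1.5-fold between libraries and it had at least 30 UMIs over both. In macrophage-gated cells 31 of the 32 genes had enough UMIs, and 16 of them were higher with anti-VEGF antibody, as were 7.05% of all 13533 features. Ldhb alone was lower, where 6.04% of features were. The median log2 ratio was 0.59 for the 31 genes and -0.07 for all features. Of all features called in this class 53.9% were higher, and 65.3% with TMM scaling, which moved every log2 ratio up by 0.09. Other markers differed too: the 6 gate markers summed to 18140 CPM in the control and 12896 CPM in the anti-VEGF library, 4 monocyte markers to 75.9 and 163 CPM, 4 collagen-cell markers to 9.5 and 19.2 CPM and 4 haemoglobin genes to 21.9 and 0.5 CPM, and their part in the result was not tested. Pdk4, a kinase typical of fasting and fat use, was the member not measured: it had 1 UMI in the control library and 0 in the anti-VEGF library over all kept cells, and in macrophage-gated cells of the latter a level of up to 0.0309 CPM (3 UMIs) would be compatible with that count.

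**Figure D2:**
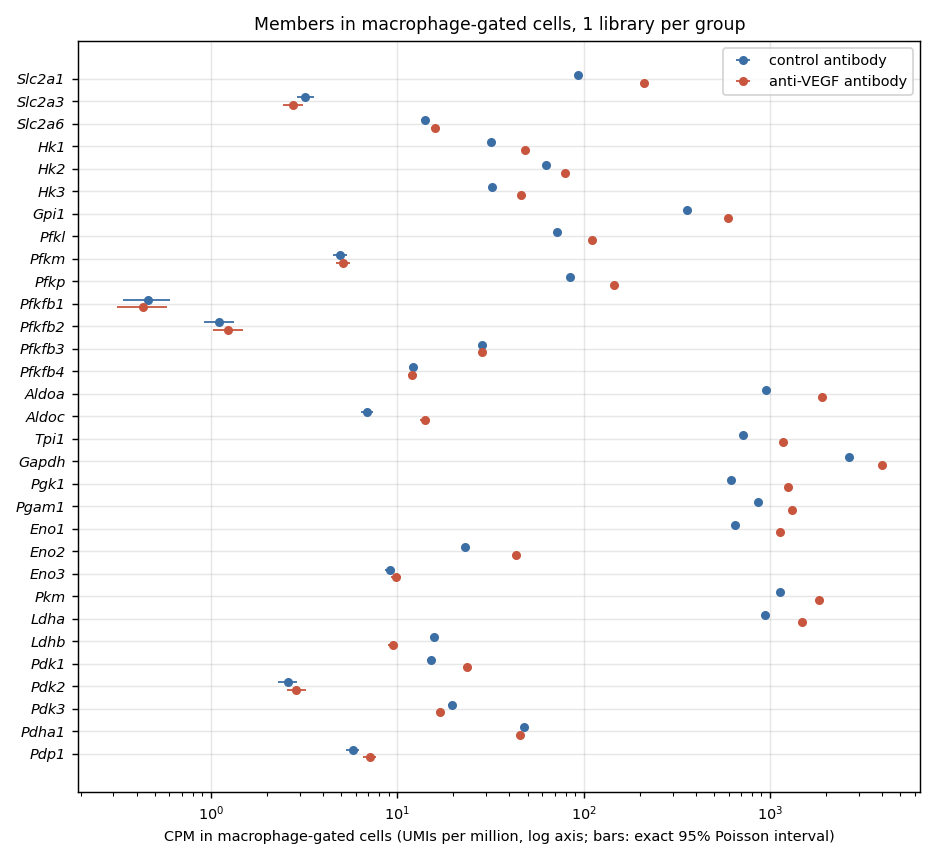
CPM of each gene in macrophage-gated cells (log axis) in the control antibody library (blue) and the anti-VEGF library (red), ordered by step of the pathway; bars are exact 95% Poisson intervals. Slc2a1, Aldoa and Pgk1 lie near or above a 2-fold gap, Pfkfb3 and Pfkfb4 nearly coincide, and Ldhb is displaced the other way.

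Slc2a1 (GLUT1), the transporter of most proliferating and hypoxic cells, was the most abundant of the 3 glucose transporter transcripts in each of the 6 classes compared. In macrophage-gated cells it stood at 93.5 CPM in the control library and 212 CPM in the anti-VEGF library, a ratio of 2.27 (interval 2.21 to 2.32). Its level was also higher in osteoclast-like cells, at 31.5 and 76.3 CPM (2.42-fold), and in ungated cells, at 66.3 and 208 CPM (3.13-fold). Monocyte-gated cells had 183 and 287 CPM of Slc2a1 (1.56-fold), and collagen-expressing cells without Car9 had 45.6 and 88.8 CPM (1.95-fold). The smallest ratio of Slc2a1 was in T-gated cells, at 1.41, with an interval of 0.967 to 2.09 that includes 1.

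Slc2a3 (GLUT3), a transporter with high affinity for glucose, had its highest levels in neutrophil-gated cells. Neutrophil-gated cells held 391 CPM (interval 294 to 508, from 55 UMIs) in the control library and 169 CPM (142 to 200, from 135 UMIs) in the anti-VEGF library. Macrophage-gated cells held 3.21 and 2.75 CPM of Slc2a3. Of all transporter UMIs of the set in neutrophil-gated cells, Slc2a3 took 50.5% (40.7 to 60.2) and 21.5% (18.3 to 24.9), while Slc2a1 stood at 369 and 576 CPM there. The neutrophil class held 45 control and 232 anti-VEGF cells with medians of 2390 and 2236 UMIs, so no ratio is given. Its own 4 check markers summed to 1385 and 2844 CPM, 4 osteoclast-like markers to 817 and 377 CPM, 4 monocyte markers to 334 and 661 CPM and 4 Flt3 dendritic markers to 980 and 862 CPM, and their part in these shares was not tested. Lymphocytes came next, with 31.9 and 29.0 CPM of Slc2a3 in T-gated and 38.7 and 52.9 CPM in NK-gated cells.

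Slc2a6, a lysosomal member of the transporter family, had ratios on both sides of 1. It stood at 21.2 CPM in control and 11.9 CPM in anti-VEGF monocyte-gated cells (ratio 0.562, interval 0.380 to 0.824), from 67 and 49 UMIs. In osteoclast-like cells it stood at 1.22 and 2.70 CPM (2.22, 1.59 to 3.12), and in ungated cells at 2.62 and 4.99 CPM (1.91, 1.52 to 2.40). In macrophage-gated cells, where it was more abundant than in the last 2 classes, it was at 14.1 and 15.9 CPM (1.12). None of the 3 calls held when each cell was weighted alike, where the log2 ratio was -0.28 in place of 0.74 in osteoclast-like cells, 0.09 in place of 0.73 in ungated cells and -0.28 in place of -0.78 in monocyte-gated cells.

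The hexokinases, which trap glucose as its phosphate, were divided among classes by isoform. Hk2, the isoform that hypoxia and insulin induce, led in 16 of 22 pairs of class and library (the 11 gated classes in each library), Hk1, the constitutive isoform, in 5, and Hk3 in 1, which was NK-gated cells of the anti-VEGF library with 3 hexokinase UMIs in all. In macrophage-gated cells Hk2 stood at 63.1 and 79.3 CPM (ratio 1.26), Hk1 at 31.7 and 48.3 CPM (1.52) and Hk3 at 32.3 and 46.0 CPM (1.42). The smallest relative difference of the 3 was thus that of Hk2. Osteoclast-like cells were led by Hk1, with 53.9% and 52.8% of hexokinase UMIs and levels of 56.0 and 67.6 CPM (1.21). Hk3, a hexokinase of blood cells, was a myeloid transcript, with 25.4% and 26.5% of hexokinase UMIs in macrophage-gated cells and 26.6% and 36.6% in monocyte-gated cells. Collagen-expressing cells without Car9 gave 1 and 4 UMIs of Hk3. The highest ratio of a hexokinase was that of Hk3 in monocyte-gated cells, at 41.7 and 96.8 CPM (2.32, interval 1.90 to 2.85).

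Gpi1, which interconverts glucose and fructose phosphates, has no second isoform in the set. It stood at 358 and 595 CPM in macrophage-gated cells (1.66-fold), at 457 and 638 CPM in osteoclast-like cells (1.39-fold) and at 392 and 726 CPM in ungated cells (1.85-fold).

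**Figure D3:**
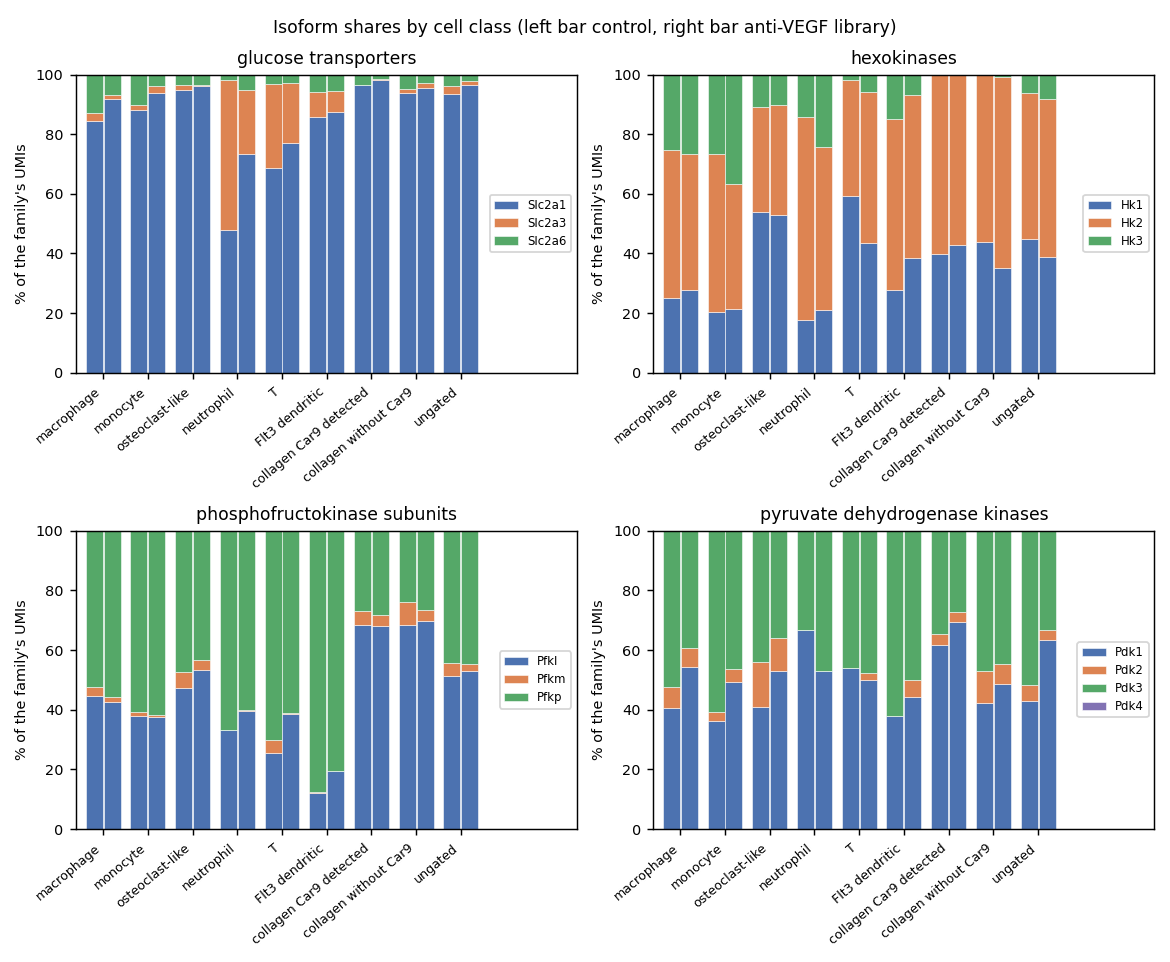
Share of each isoform in the summed UMIs of its family (vertical axis, percent), by cell class, with the control library as the left bar and the anti-VEGF library as the right bar of each pair. Slc2a3 fills 50.5% and 21.5% of the neutrophil bars, Pfkp 87.5% and 80.4% of the Flt3 dendritic bars, and the blue Pdk1 part is the taller of each pair in macrophage-gated, monocyte-gated, osteoclast-like and ungated cells of the anti-VEGF library.

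Phosphofructokinase commits glucose to glycolysis and is built from liver (Pfkl), muscle (Pfkm) and platelet (Pfkp) subunits. Pfkp led in 14 and Pfkl in 8 of the 22 pairs, and Pfkm led in none. In macrophage-gated cells Pfkp stood at 85 and 146 CPM (ratio 1.71), Pfkl at 72.4 and 111 CPM (1.54) and Pfkm at 4.94 and 5.14 CPM (1.04). Dendritic cells with Flt3 used Pfkp most heavily, at 316 CPM (interval 273 to 363) in 23 control cells and 477 CPM (408 to 553) in 14 anti-VEGF cells, which was 87.5% and 80.4% of their phosphofructokinase UMIs. Collagen-expressing cells had the reverse makeup, with 68.4% and 69.8% of UMIs from Pfkl where Car9 was absent and 68.5% and 68.0% where it was detected. Pfkm was the lower member of the set in collagen-expressing cells without Car9, at 13.5 and 7.66 CPM (0.566, interval 0.345 to 0.908), from 59 and 27 UMIs.

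The PFKFB enzymes make and remove fructose 2,6-bisphosphate, the strongest activator of phosphofructokinase, and they did not share in the difference between libraries in macrophage-gated cells. Pfkfb3, whose kinase activity prevails and which hypoxia is known to induce, stood at 28.6 and 28.4 CPM (ratio 0.994, interval 0.944 to 1.05), and Pfkfb4 at 12.2 and 12.1 CPM (0.992, 0.916 to 1.07). Pfkfb1 and Pfkfb2, the liver and heart forms, were scarce, at 0.458 and 0.433 CPM and at 1.11 and 1.24 CPM. In other classes Pfkfb3 was above 1 without reaching 1.5, with ratios of 1.28 in monocyte-gated, 1.41 in osteoclast-like and 1.44 in ungated cells. The highest levels of Pfkfb3 were in dendritic cells with Ccr7, at 143 CPM (112 to 181, from 69 UMIs) and 88.8 CPM (57.5 to 131, from 25 UMIs), where it made up 95.8% and 100% of the family. Collagen-expressing cells were led by Pfkfb4 instead, with 58.5% and 59.2% of the family where Car9 was absent.

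Aldolase splits the 6-carbon sugar, and Aldoa supplied at least 93.0% of aldolase UMIs in every class and library. It went from 951 to 1891 CPM in macrophage-gated cells (ratio 1.99), from 822 to 1509 CPM in monocyte-gated cells (1.84) and from 750 to 1285 CPM in T-gated cells (1.71). Aldoc, the brain-type isoform, was concentrated in osteoclast-like cells, at 109 and 125 CPM (1.14-fold) and 6.24% and 5.26% of aldolase UMIs. Macrophage-gated cells held 6.89 and 14.0 CPM of Aldoc, a ratio of 2.04 (1.86 to 2.23).

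The 4 steps that follow are each served by 1 gene of the set. Gapdh, the dehydrogenase that makes NADH and the most abundant transcript of the 32, stood at 2650 and 3981 CPM in macrophage-gated cells, and its ratio of 1.5 placed it just inside the 1.5-fold limit, with Hk3 at 1.42 the nearest gene outside. Pgk1, the first step that yields ATP, was at 616 and 1253 CPM (2.03). Tpi1, which interconverts the triose phosphates, was at 713 and 1180 CPM (1.66), and Pgam1, the mutase, at 859 and 1304 CPM (1.52). Among these, Pgk1 had the highest ratio in macrophage-gated, monocyte-gated, osteoclast-like and ungated cells and in collagen-expressing cells without Car9, with values from 1.43 to 2.48, and in T-gated cells it was 1.86, below 2.24 for Tpi1 and 1.98 for Pgam1. Gapdh in collagen-expressing cells without Car9 was nearly alike in both libraries, at 4033 and 4258 CPM (1.06, interval 1.03 to 1.08). Its highest levels were in collagen-expressing cells with Car9, at 6488 CPM (6379 to 6598) and 8155 CPM (8079 to 8232). Gapdh, Pgk1, Eno1 and other members have near-identical processed copies in the genome, and no source used here states how reads matching several copies were counted, so their absolute levels are uncertain.

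Enolase makes phosphoenolpyruvate, and Eno1 led in all 22 pairs. In macrophage-gated cells Eno1 stood at 646 and 1136 CPM (1.76). Eno2, the neuronal form, had few transcripts and the largest ratios of the family: 23.2 and 43.3 CPM in macrophage-gated cells (1.87), 8.02 and 21.1 CPM in osteoclast-like cells (2.63), 14.7 and 48.8 CPM in collagen-expressing cells without Car9 (3.33, interval 2.48 to 4.5) and 14.4 and 51.2 CPM in ungated cells (3.55, 3.25 to 3.88). The last 2 values were also the highest ratios of any member in those classes. Eno3, the muscle form, had ratios whose intervals include 1 in macrophage-gated and osteoclast-like cells, with 9.14 and 9.87 CPM in macrophage-gated cells (1.08, 0.987 to 1.18) and 55.4 and 53.5 CPM in osteoclast-like cells (0.966, 0.910 to 1.03). Dendritic cells with Ccr7 held the largest part of Eno3, 26.9% and 21.2% of enolase UMIs, at 116 and 99.4 CPM.

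Pkm, pyruvate kinase of most tissues, stood at 1124 and 1837 CPM in macrophage-gated cells (1.63), 942 and 1356 CPM in osteoclast-like cells (1.44) and 589 and 1277 CPM in T-gated cells (2.17). Counts from transcript ends do not tell its M1 and M2 splice forms apart.

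The lactate dehydrogenases differed in opposite directions between libraries. Ldha, the form that favours lactate production, was at 941 and 1477 CPM in macrophage-gated cells (ratio 1.57), 829 and 1195 CPM in osteoclast-like cells (1.44) and 1156 and 1878 CPM in ungated cells (1.62). Ldhb, the form that favours pyruvate, was at 15.8 and 9.51 CPM in macrophage-gated cells (0.603, interval 0.556 to 0.654) and at 30 and 11.2 CPM in monocyte-gated cells (0.372, 0.256 to 0.534). It was also lower in ungated cells, at 15.8 and 9.96 CPM (0.631, 0.561 to 0.709), a call that ended under TMM scaling (log2 ratio -0.53 in place of -0.61). In osteoclast-like cells, where Ldhb was more abundant, it stood at 49.0 and 38.3 CPM (0.782, 0.731 to 0.836). As a share of lactate dehydrogenase UMIs, Ldhb was 1.65% (1.57 to 1.73) and 0.640% (0.599 to 0.682) in macrophage-gated cells, and 5.58% (5.37 to 5.80) and 3.11% (2.94 to 3.27) in osteoclast-like cells.

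At the pyruvate dehydrogenase gate, the leading kinase was not the same in both libraries. Pdk1, the kinase that hypoxia is known to induce, stood at 15.2 and 23.6 CPM in macrophage-gated cells (1.55), and Pdk3 at 19.6 and 17.0 CPM (0.870, interval 0.815 to 0.928). Pdk1 therefore supplied 40.6% (39.1 to 42.2) of kinase UMIs in control cells and 54.2% (52.7 to 55.7) in anti-VEGF cells. The lead likewise passed from Pdk3 in the control to Pdk1 in the other library in osteoclast-like cells (40.9% and 52.9% Pdk1), monocyte-gated cells (36.2% and 49.3%) and ungated cells (42.8% and 63.3%). Pdk2 was scarce, at 2.59 and 2.88 CPM in macrophage-gated cells, and its largest part was 15.0% and 11.1% of kinase UMIs in osteoclast-like cells among the 6 classes compared. The target of the kinases, Pdha1, differed little, with 48.0 and 45.8 CPM in macrophage-gated cells (0.955, 0.917 to 0.994), a log2 ratio of -0.07 that is smaller than the shift of 0.09 made by TMM scaling. The phosphatase Pdp1 was at 5.77 and 7.11 CPM in macrophage-gated cells (1.23), and it passed the limit only in collagen-expressing cells without Car9, at 8.25 and 14.2 CPM (1.72, 1.10 to 2.72).

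The other 5 classes compared are described next by their counts, which depend on how many genes reached 30 UMIs. In monocyte-gated cells 27 genes had 30 UMIs, and 15 were higher with anti-VEGF antibody (6.09% of all features were). Ldhb and Slc2a6 were the 2 lower genes, a count near the share of all features that were lower (8.78%). The median log2 ratio of the 27 genes was 0.61, against -0.06 for all features. Thinning every cell to 5000 UMIs left 8 higher and 1 lower, counts given without the share of all features under that setting. In this class 4 neutrophil markers summed to 223 and 106 CPM and 4 NK markers to 40.1 and 9.2 CPM, whose part was not tested. In ungated cells 17 of 31 were higher (9.46% of features) and Ldhb was lower (8.75% of features), with a median of 0.67 against -0.08. Haemoglobin genes summed to 2.3 and 71.9 CPM in ungated cells, osteoclast-like markers to 227 and 119 CPM collagen-cell markers to 224 and 298 CPM, monocyte markers to 295 and 539 CPM and NK markers to 14.1 and 2.9 CPM, and their part was not tested. The split of all calls in ungated cells was 52.0% higher, and 64.6% with TMM scaling.

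In osteoclast-like cells 7 of 31 genes were higher, where 5.8% of all features were, and none was lower, where 3.62% were. The 7 were Slc2a1, Slc2a6, Pfkl, Tpi1, Pgk1, Eno2 and Pdk1, and the median log2 ratio was 0.38 against -0.04. This class differed in depth, with medians of 8438 and 28734 UMIs and 1247 and 256 cells under 5000 UMIs. Its 4 osteoclast-like markers summed to 4397 and 6556 CPM, a gap that lay in Mmp9, at 3132 and 5326 CPM. The other markers differed less, with Atp6v0d2 at 1041 and 981 CPM, Ocstamp at 143 and 152 CPM and Dcstamp at 81.2 and 97.2 CPM. The 6 macrophage gate markers summed to 4096 and 3381 CPM and 4 monocyte markers to 29.0 and 69.0 CPM. The part of all these markers in the result was not tested.

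In T-gated cells 19 genes had 30 UMIs, and 10 were higher, where 16.1% of all features were. None was lower, where 12.2% were. The largest ratios were those of Pfkl at 49.7 and 116 CPM (2.33), Tpi1 at 426 and 952 CPM (2.24), Ldha at 750 and 1643 CPM (2.19) and Pkm. The T-gated cells of the 2 libraries differed in other ways: 4 T-cell check markers summed to 1001 and 772 CPM, 4 NK markers to 1792 and 634 CPM and 4 collagen-cell markers to 3.5 and 319 CPM, and their part in the result was not tested. The latter came largely from 3 anti-VEGF cells that held 226360 of the 725051 UMIs of the class. Without them 8 genes were higher and 0 lower, and the median log2 ratio went from 0.61 to 0.54. The share of all features under that setting is not given, so these counts show only how far the result moved.

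In collagen-expressing cells without Car9, which had no Ptprc UMI and so need not be leukocytes, 3 of 24 genes were higher (Slc2a1, Eno2 and Pdp1), where 6.38% of all features were. Pfkm alone was lower, where 5.89% were, so the lower count was near the share of all features. The median log2 ratio was 0.39 against -0.04. The 4 collagen-cell markers summed to 1596 and 2466 CPM, 4 monocyte markers to 1326 and 1801 CPM and 4 macrophage markers to 9.2 and 18.7 CPM, and their part was not tested. The count of higher genes depended on the processing, ranging from 2 to 7 over the alternatives, with 7 when each cell was weighted alike.

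**Figure D4:**
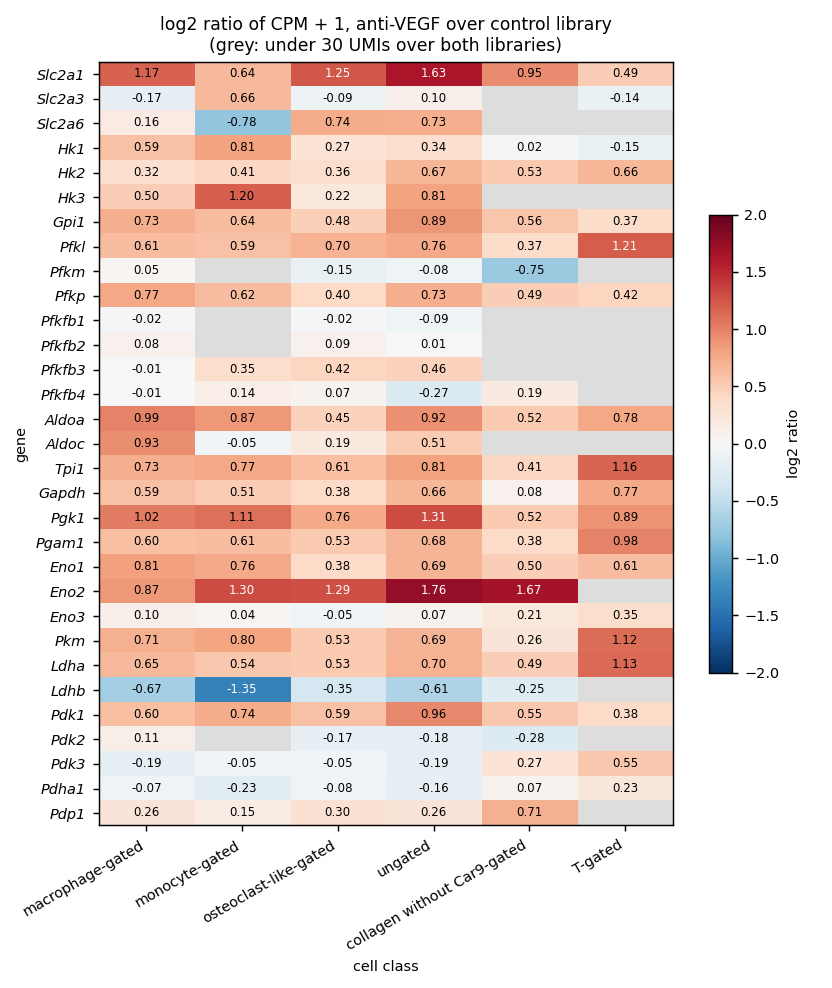
Log2 ratio of CPM + 1, anti-VEGF over control library, for each gene (rows, in pathway order) in the 6 classes compared (columns); red is higher and blue lower in the anti-VEGF library, and grey cells had under 30 UMIs. Slc2a1, Pgk1 and Eno2 form the reddest rows, Ldhb is blue in each class where it was measured, and the rows of Pfkfb1, Pfkfb2, Pfkfb4, Pdk2, Pdk3 and Pdha1 stay pale in macrophage-gated cells.

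Genes of neighbouring routes were read in the same way. Of 54 further genes of glucose and pyruvate handling, 44 had 30 UMIs in macrophage-gated cells, 9 were higher (7.05% of all features were) and 1 was lower (6.04%), with a median log2 ratio of -0.09 against -0.07 for all features. Among the 5 highest were the glycogen branching enzyme Gbe1 at 7.48 and 16.4 CPM (2.20), Eno1b, a near copy of Eno1 (1.98), the malic enzyme Me1 (1.97) and Slc16a3, the lactate exporter MCT4, at 91.2 and 177 CPM (1.94). The 5 lowest were the glycerol phosphate dehydrogenase Gpd1 (0.503), Tigar (0.742), the transporter Slc16a7 (0.769), Pdp2 (0.785) and Pdhx (0.792). The mitochondrial pyruvate carrier was alike in both libraries, with Mpc1 at 155 and 154 CPM and Mpc2 at 139 and 139 CPM, and the pentose phosphate enzymes Tkt, at 226 and 201 CPM (0.889), and Taldo1, at 311 and 281 CPM (0.903), were slightly below 1. Of these, the carrier and pentose phosphate genes were picked after their values were seen. In monocyte-gated cells 5 of 37 were higher (6.09% of all features were) and 3 lower (8.78%), and in osteoclast-like cells 3 of 42 were higher (5.8%) and 1 lower (3.62%). In T-gated cells 8 of 21 were higher (16.1%) and 0 lower (12.2%), in collagen-expressing cells without Car9 5 of 34 were higher (6.38%) and 1 lower (5.89%), and in ungated cells 8 of 41 were higher (9.46%) and 4 lower (8.75%). Several of these counts were near the shares of all features. Among them were both counts in osteoclast-like cells and the lower counts in monocyte-gated, ungated and collagen-expressing cells.

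Macrophage-gated cells were then compared at a like level of 13 hypoxia genes outside the set, among them Adm, Ndrg1, Bnip3, Egln3 and Vegfa. All 13 had ratios above 1, and 10 had ratios of 1.5 or more, as did 7.05% of all features. Their median log2 ratio was 1.23, against -0.07 for all features. The 13 genes were chosen with earlier results of these data known. Each cell with at least 5000 UMIs was thinned to 5000, which left 3876 of 5166 control and 3438 of 3753 anti-VEGF cells, and was graded by its summed UMIs of those 13 genes. Cells with 0 to 2 UMIs formed grade 1, 3 to 4 grade 2, 5 to 7 grade 3 and 8 or more grade 4. Grade 4 held 20.8% (interval 19.5 to 22.1) of control cells and 57.6% (55.9 to 59.3) of anti-VEGF cells, and grade 1 held 35.4% (33.9 to 37.0) and 11.9% (10.8 to 13). Grades are ranges of a score and not cell types, and the median score was 4 for control and 9 for anti-VEGF cells.

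Within each library most of the genes followed the grade. Between grades 1 and 4, 19 of 29 measured genes were higher in the control library (6.76% of all features were) and 1, Slc2a3, was lower (11.5% of features), with a median log2 ratio of 0.95. The Slc2a3 ratio of 0.505 rested on 27 UMIs in grade 1 and 8 in grade 4 (interval 0.198 to 1.14). In the anti-VEGF library 19 of 29 were higher (10.0% of features) and 0 lower (18.4% of features), with a median of 1.03. The 19 include Slc2a3, at 2.99-fold from 2 and 29 UMIs (0.757 to 25.9), so its direction is not settled by these counts. Slc2a1 had the largest ratio of grade 4 to grade 1 in both libraries, from 32.5 to 243 CPM in the control library (7.49-fold) and from 45.5 to 338 CPM in the anti-VEGF library (7.42-fold). Pgk1 was 3.23-fold and 3.08-fold higher in grade 4, Hk2 3.1-fold and 2.95-fold, Eno2 3.70-fold and 3.92-fold, and Pfkfb3 2.47-fold and 3.42-fold. For other genes the interval of the ratio includes 1 in both libraries: Hk3 had ratios of 1.04 and 1.16, Pdk3 1.15 and 1.19, and Pdha1 0.909 and 0.952. Ldhb had 0.825 (0.596 to 1.13) and 0.671 (0.420 to 1.11), so a lower level in grade 4 is not excluded by its counts.

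At a like grade the difference between libraries was smaller than over all thinned cells, where the median log2 ratio was 0.61. The medians were 0.28 in grade 1, 0.35 in grade 2, 0.26 in grade 3 and 0.30 in grade 4, against -0.01 to -0.07 for all features. In grade 1, 2 of 27 genes were higher (3.61% of features) and 2 lower (5.19%), and in grade 2, 5 of 26 were higher (3.53%) and 0 lower (4.8%). In grade 3, 4 of 27 were higher (3.75%) and 0 lower (4.82%), and in grade 4, 1 of 29 was higher (4.67%) and 1 lower (6.49%). The counts in grade 4 and the lower count in grade 1 were near the shares of all features. The grades are not matched exactly at either end. The median score within grade 4, the open end, was 11 for control and 14 for anti-VEGF cells. Within grade 1 it was 1 for control and 2 for anti-VEGF cells. In both libraries it was 3 within grade 2 and 6 within grade 3.

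Aldoa differed by nearly the same factor in every grade. It stood at 628 and 1016 CPM in grade 1 and at 1604 and 2496 CPM in grade 4, and its ratio was 1.54 to 1.62 over the 4 grades. Pgk1 was between 1.42 and 1.56, Eno1 between 1.37 and 1.46, and Gapdh between 1.21 and 1.28. Hk2 lay on the other side of 1 in each grade, between 0.818 and 0.905, with intervals below 1 in grades 3 and 4, although its ratio over all macrophage-gated cells was 1.26. Pfkfb3 likewise was between 0.543 and 0.968, with intervals below 1 in grades 1 and 4, at 48.9 and 36.7 CPM in grade 4. Ldhb was between 0.529 and 0.780 in each grade, with an interval below 1 in grade 4 alone (0.373 to 0.753).

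**Figure D5:**
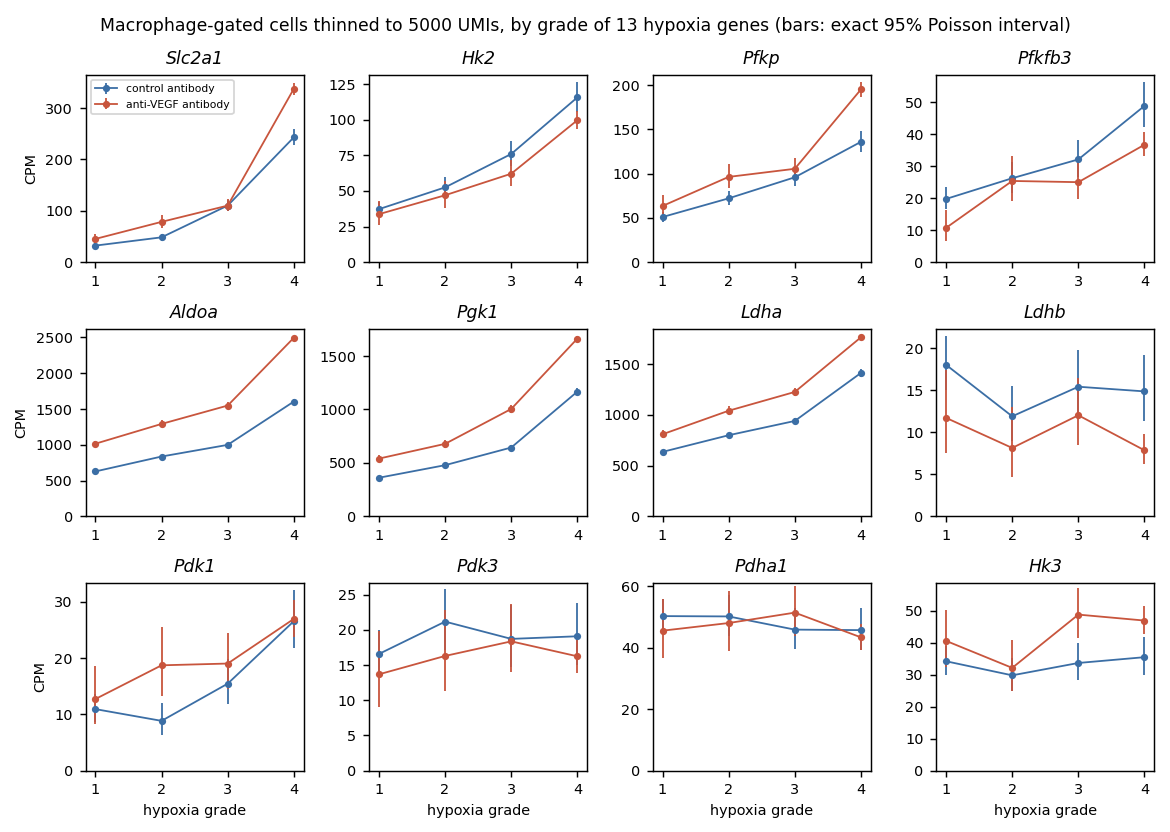
CPM of 12 genes (vertical axes, from 0) in macrophage-gated cells thinned to 5000 UMIs, by grade of 13 hypoxia genes (horizontal axis), in the control antibody library (blue) and the anti-VEGF library (red); bars are exact 95% Poisson intervals. Slc2a1, Aldoa, Pgk1 and Ldha climb with the grade in both libraries, Hk2 and Pfkfb3 climb with the red line at or below the blue one, and Pdk3, Pdha1 and Hk3 are nearly flat in the control library.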

How the data were processed

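The deposited values were raw UMI counts for every gene in every called cell. Per the submitters' processing notes they were made with Cell Ranger 3.0.2 on genome build mm10, and version 3.1.0 stands in the matrix, per the file headers. The cell filter asked for 300 genes and 500 UMIs or more and allowed 10% of UMIs from mitochondrial genes. Gates counted marker genes per cell, with minimum levels per 10000 UMIs. Cells meeting gates of more than 1 lineage (328 and 244) were left out as possible doublets, and no doublet caller was run. Sums of UMIs over the cells of a class in 1 library were scaled to CPM, with exact Poisson intervals for levels, conditional binomial intervals for ratios and Clopper-Pearson intervals for shares. For log2 ratios 1 CPM was added to both levels as a pseudocount. Kept cells held 223974693 and 206451897 UMIs.

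All 32 genes are accounted for. Of 54 further pathway genes, the 5 highest and the 5 lowest ratios in macrophage-gated cells are named, except 1 that is not reported here, and others named among them are marked as picked later. The genes, gates and lists were chosen with earlier results of these data known. Hypoxia grades were cut at the quartiles of the control library. The ratio step, the thinning and the medians taken per grade were run on simulated data. The scoring of cells and their assignment to grades were not. Alternatives were TMM factors (edgeR 4.0.16), DESeq2 1.42.0 size factors, other filters, gates and weights, and a pseudocount of 5 CPM. Computations used Python 3.11.15, numpy 2.4.6, scipy 1.17.1, pandas 2.3.3 and R 4.3.3.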

Additional observations from a re-analysis of the deposited data

Results flagged for a closer look

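Slc2a6 was singled out because its ratio between libraries lay on opposite sides of 1 in different classes. It was 0.562 in monocyte-gated cells, 2.22 in osteoclast-like cells and 1.91 in ungated cells. The difference between classes was not tested, since each class gave 1 value per library, and the osteoclast-like ratio reversed when each cell was weighted alike, where the log2 ratios were -0.28 in osteoclast-like, 0.09 in ungated and -0.28 in monocyte-gated cells.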

How the results depend on the processing

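No paired analysis was possible because each group had 1 library, and for the same reason no library could be left out. The median log2 ratio of the 32 genes stayed above 0 in all 6 classes under every alternative run. In macrophage-gated cells it was 0.68 with TMM scaling, 0.68 with DESeq2 size factors, 0.54 with no UMI minimum, 0.58 with a stricter cell filter, 0.61 in cells thinned to 5000 UMIs, 0.55 with stricter gates and 0.50 with a pseudocount of 5 CPM, and 2 genes were lower with no UMI minimum. Monocyte-gated cells had 8 higher, 1 lower and a median of 0.53 when thinned, and a median of 0.50 with cells weighted alike. Osteoclast-like cells had 1 gene lower with a stricter cell filter and 1 with cells weighted alike, and medians of 0.42 with TMM scaling, 0.42 with DESeq2 size factors, 0.44 with the stricter cell filter, 0.42 thinned, 0.35 weighted alike and 0.31 with a pseudocount of 5 CPM. T-gated cells had 17 higher and 3 lower with no UMI minimum, a setting that lets in genes under 30 UMIs. They had 1 lower with multi-gate cells given to the first gate met, and a median of 0.40 with cells weighted alike. Over all alternatives their count of higher genes ranged from 7 to 17. Leaving out the 3 cells with collagen-cell transcripts was chosen after seeing the data. Collagen-expressing cells without Car9 had 5 higher with TMM scaling, DESeq2 size factors, stricter gates and multi-gate cells given to the first gate. They had 6 higher with no UMI minimum and when thinned, and 7 with cells weighted alike. The lowest count of higher genes in these cells under any alternative was 2. Their lower count was 0 when thinned and 2 weighted alike, and their median was 0.29 with stricter gates. In ungated cells 0 genes were lower with TMM scaling, DESeq2 size factors or stricter gates, and the median was 0.56 with a pseudocount of 5 CPM. For the hypoxia grades, the median in grade 1 was 0.33 with cuts from the anti-VEGF library, and that of grade 4 over grade 1 in the control library was 1.28 with those cuts and 0.83 without Bnip3, Fam162a and Ak4. The log2 ratio of Slc2a6 in osteoclast-like cells reversed to -0.28 with cells weighted alike. Among single genes in their classes, 409 values under an alternative moved by less than their counting interval, 184 moved by more and 1 reversed. The cause of these changes was not tested. Counts under an alternative, here and in the Results, are given without the share of all features under the same setting. They show how far a count moved and not how the genes stood against other features. Few cells or shallow cells limit the T-gated, NK-gated, neutrophil and dendritic classes, where many genes rest on under 30 UMIs.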

Other observations

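Of the genes of glycogen storage and use, 6 picked after their values were seen are given here for macrophage-gated cells. Of these, 4 had ratios above 1.5, as did 7.05% of all features, and 2 had ratios below 1. Because they were picked by value, these counts say nothing about glycogen genes as a set. Gys1, the glycogen synthase, stood at 11.9 CPM in the control and 22.5 CPM in the anti-VEGF library (ratio 1.88, interval 1.76 to 2.02). Ugp2, which makes the sugar donor for glycogen, stood at 66.5 and 109 CPM (1.64, 1.59 to 1.69). Pygl, the phosphorylase that breaks glycogen down, stood at 20.0 and 31.3 CPM (1.56, 1.48 to 1.65), while Pygb, another phosphorylase, stood at 18.7 and 16.6 CPM (0.888, 0.831 to 0.948). Pgm2, a phosphoglucomutase, stood at 28.8 and 43.4 CPM (1.5, interval 1.44 to 1.58), and Pgm1 at 25 and 22.0 CPM (0.878, 0.829 to 0.930). Both Pgm symbols are those of the mouse annotation used for the counts, and they were not matched to human genes of like name.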
